A study of Mus musculus with 6 samples.

Results

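Nonsense-mediated decay (NMD) factors are the proteins that find messenger RNAs with a premature stop codon and pass them on to decay. The 9 genes described here, Upf1, Upf2, Upf3a, Upf3b, Smg1, Smg5, Smg6, Smg8 and Smg9, were taken by gene symbol from the 31641 genes of the deposited count table, and each symbol matched 1 gene. The RNA came from E14, an embryonic stem cell line of the mouse, and was sequenced after poly(A) selection. The KD group holds 3 libraries of the Nat10 KD genotype from cultures with doxycycline (Dox). The CON group holds 3 libraries of the Nat10 WT genotype from cultures without Dox. Nat10 encodes an RNA acetyltransferase, and the series title ties it to pluripotency and to the 2C state, in which cultured cells switch on genes of the 2-cell embryo. Dox was present in all KD and in no CON libraries, and the genotype label differed in the same way. Dox, any difference between the lines and the lower Nat10 thus cannot be told apart. The sources used here do not give the knockdown construct, the number of clones, or the dose and time of Dox. They do not call the replicates separate cultures either, so p-values reflect only the spread between these libraries, possibly a technical one. Where a group has 3 values in a row below, they are those of replicates 1, 2 and 3.

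NMD begins when a ribosome stops at a codon that still has an exon junction complex downstream, or a long stretch of untranslated RNA. UPF1, an RNA helicase, is then joined by UPF2 and UPF3 proteins and phosphorylated by the kinase SMG1, and phosphorylated UPF1 recruits SMG6, which cuts the RNA, or SMG5, which helps bring in deadenylation and decapping enzymes. In human cells the messenger RNAs of several of these factors have themselves been described as NMD substrates, and mouse embryonic stem cells that lack an NMD factor have been described as slow to leave the pluripotent state.

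Library totals ranged from 33770755 to 39524273 counts in KD and from 35304394 to 39450202 counts in CON. Nat10 was lower in every KD library, with 1100, 1164 and 1050 counts in the KD libraries, against 4960, 5496 and 4877 counts in the CON libraries. KD-3 stood apart from the other KD libraries: the chi-square per degree of freedom over genes was 14.3 against KD-1 and 10.7 against KD-2, but 3 between KD-1 and KD-2, and 2.69 to 5.03 between CON libraries. All 8 embryonic stem cell markers checked, among them Pou5f1 and Nanog, were present in every library, with a summed level of 2087 to 2225 CPM, counts scaled to a common library size, in KD and 5706 to 5747 CPM in CON, and all 8 fell in KD. Of 8 fibroblast markers, 6 were in the table, at a sum of 27.6 to 31.6 CPM in KD and 15.1 to 18.1 CPM in CON. Of the 4 tested, Col1a2, Col1a1 and Pdgfra rose and Thy1 fell. Col1a2 made most of the KD sum (16.6 CPM in KD and 1.53 CPM in CON), and Thy1 most of the CON sum (5.46 CPM in KD and 10.9 CPM in CON, edgeR adjusted p = 2.31e-06). Col3a1 had 0, 0 and 2 counts in the KD libraries and 3, 2 and 2 counts in the CON libraries. The part of either marker shift in the results below was not tested.

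All 9 NMD factor genes passed the filter on low counts, and between KD and CON 7 of them changed: 6 fell and 1 rose. Smg5 and Smg1 fell most, Smg9, Upf1, Smg6 and Upf2 fell less, Upf3a rose, and Upf3b and Smg8 did not pass the test. A change here means an adjusted p below 0.05 in edgeR's quasi-likelihood test over 18019 genes, where 63% of all genes tested were called, 32.2% higher and 30.8% lower in KD. The 77.8% of members called is thus read against a background that is itself high, and 6 falls among 9 members against that 30.8%. Without KD-3 the members counted 1 higher and 6 lower as well. Leaving out any other library gave 5 lower, as Upf2 lost its call, and 1 higher, or 2 without KD-1. The CPM of the KD and CON libraries did not overlap for 7 of the 9 genes, beside 67.1% of all genes tested. The median log2 fold change of the 9 genes was -0.23, beside 0.02 for all genes tested. No member changed by more than 1 on the log2 scale, which 17.6% of all genes tested did, and the median size of change without regard to sign was 0.37 for the members and 0.44 for all genes. Summed over the 9 genes, the level was 915, 914 and 909 CPM in the KD libraries, against 1218, 1223 and 1198 CPM in the CON libraries. Smg5, Upf1 and Smg1 weigh most in this sum, which is not scaled for gene length. CPM here are scaled by TMM, a method that sets library scales by the bulk of genes. TMM factors were 1.08 to 1.084 in KD and 0.922 to 0.926 in CON, so the scaling moves every fold change by about the same amount. With libraries scaled by their total counts only, the median of all genes tested was 0.25 in place of 0.02, and of the 9 genes 3 were called lower (Smg5, Smg1 and Smg9) and 3 higher (Upf3a, Upf3b and Smg8). Under that scaling 65.6% of all genes tested were called, 46% higher and 19.6% lower in KD. The sums over the 9 genes were then closer, at 987, 990 and 985 CPM in the KD libraries and 1128, 1127 and 1104 CPM in the CON libraries.

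**Figure D1:**
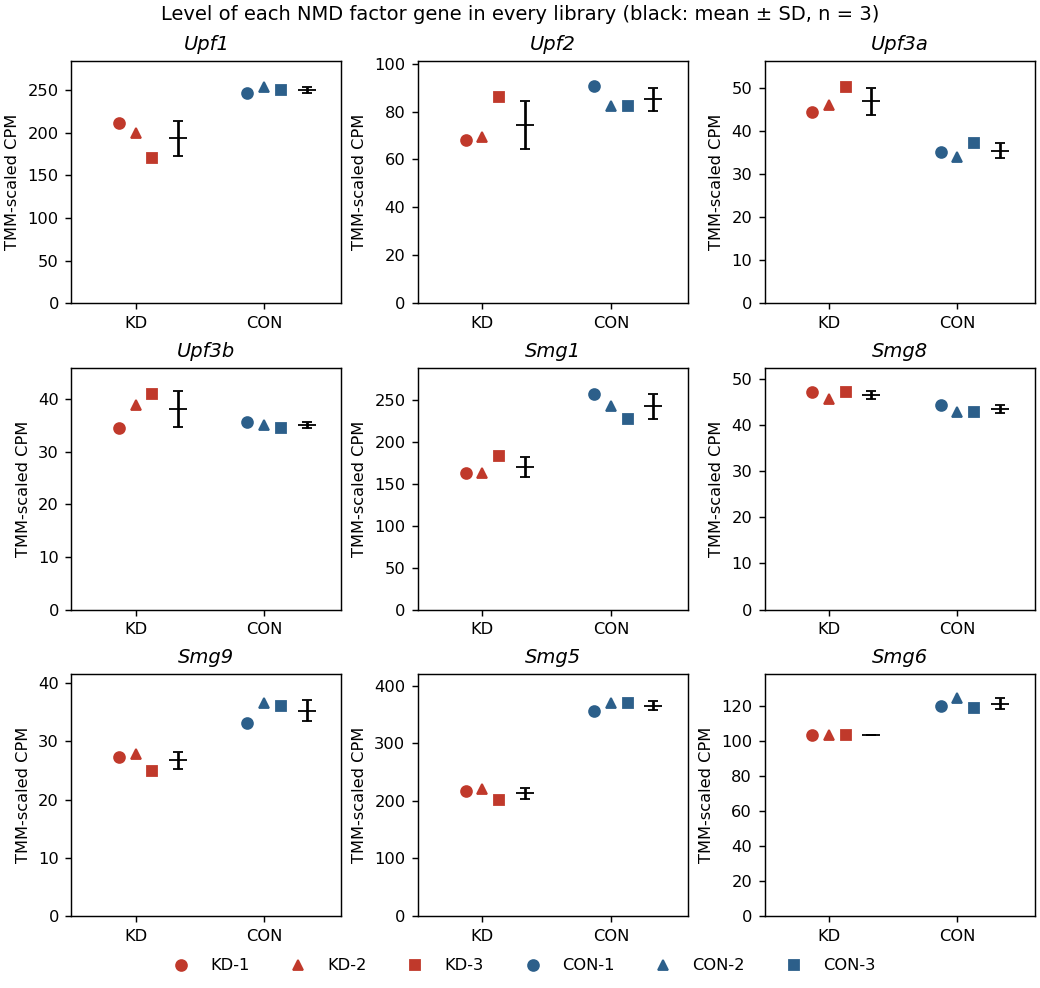
TMM-scaled CPM (vertical axes, from 0) of the 9 NMD factor genes in the 3 KD and 3 CON libraries, with the group mean ± SD in black. Smg5 lies at 202 to 220.3 CPM in KD and at 356 to 371 CPM in CON, and KD-3 is the highest KD library for Upf2 and the lowest for Upf1.

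SMG5 acts after UPF1 has been phosphorylated, and helps recruit deadenylation and decapping enzymes and a phosphatase that resets UPF1. Smg5 had 9078, 9428 and 7400 counts in the KD libraries, against 12119, 13480 and 12012 counts in the CON libraries. Every KD library was below every CON library, at a mean of 213 ± 9.49 CPM in KD and 365 ± 8.29 CPM in CON (SD, n = 3 each). The level was 1.71-fold lower in KD (log2 fold change -0.78, SE 0.045, edgeR adjusted p = 8.05e-10). It was also lower with libraries scaled by total counts only (log2 fold change -0.55, edgeR adjusted p = 3.39e-08). Smg5 occupies chromosome 3 from 88336260 to 88362338 on GRCm38 in GENCODE M21, forward strand.

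SMG6 is the endonuclease of the pathway, which cuts the RNA near the stop codon. Smg6 had 4335, 4431 and 3777 counts in the KD libraries, against 4099, 4536 and 3865 counts in the CON libraries. After TMM scaling the KD libraries were at 103 CPM each, below the 119 to 125 CPM of the CON libraries. The mean was 103 ± 0.135 CPM in KD and 121 ± 3.09 CPM in CON (SD, n = 3 each), a 1.17-fold fall (edgeR adjusted p = 0.000384). That call was lost when libraries were scaled by total counts only, where the log2 fold change was -0.0012 (edgeR adjusted p = 0.983). Smg6 occupies chromosome 11 from 74925823 to 75164448, forward strand. Of its exonic bases, 126 are shared with Srr and 117 with Gm12333 on the opposite strand, whose reads cannot be told apart from its own without a stated strand setting.

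The ratio of 2 genes within a library does not depend on library scaling. Smg5 over Smg6, taken from the deposited FPKM (counts scaled for gene length and library total), was 2.54, 2.59 and 2.38 in the KD libraries, against 3.59, 3.61 and 3.78 in the CON libraries. The groups did not overlap, and the ratio in KD was 0.684 of that in CON. The pair was chosen after its values were seen, so this separation was not an independent test. An exact two-sided permutation test gave p = 0.1, the smallest that 3 against 3 libraries can give, and adjusted over the 5 ratios examined this was 0.167.

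SMG1 is the kinase that phosphorylates UPF1, and it belongs to the same family as ATM, ATR and mTOR. Smg1 had 6827, 6982 and 6707 counts in the KD libraries, against 8767, 8824 and 7382 counts in the CON libraries. The groups did not overlap after scaling, with 163 to 183 CPM in KD and 227 to 257 CPM in CON. The mean was 170 ± 11.8 CPM in KD and 242 ± 15.2 CPM in CON (SD, n = 3 each), a 1.43-fold fall (log2 fold change -0.51, SE 0.057, edgeR adjusted p = 1.23e-06). Smg1 occupies chromosome 7 from 118131308 to 118243670, reverse strand, and its coding transcript has 63 exons.

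SMG8 and SMG9 bind SMG1 and hold its kinase activity in check. Smg9 fell 1.32-fold (edgeR adjusted p = 0.000139). It was at 27.3, 27.9 and 25 CPM in the KD libraries, against 33.1, 36.6 and 36.1 CPM in the CON libraries. Scaled by total counts only, it passed narrowly (log2 fold change -0.17, edgeR adjusted p = 0.0427). Smg8 was at 47, 45.6 and 47 CPM in KD and at 44.4, 42.8 and 42.9 CPM in CON. Its groups did not overlap, as for 67.1% of all genes tested, but the log2 fold change of 0.10 (95% interval -0.02 to 0.22) did not pass (edgeR adjusted p = 0.129). Under scaling by total counts only, Smg8 was called higher in KD (log2 fold change 0.33, edgeR adjusted p = 9.53e-05).

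Both were also set against Smg1 within each library, a choice made after their values were seen. The FPKM ratio of Smg8 to Smg1 was 2.15, 2.08 and 1.91 in the KD libraries, against 1.28, 1.32 and 1.41 in the CON libraries, a 1.53-fold difference with no overlap (exact permutation p = 0.1, adjusted 0.167). Smg9 over Smg1 was 1.08, 1.11 and 0.883 in KD and 0.834, 0.978 and 1.03 in CON, so those groups overlapped (exact permutation p = 0.5).

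**Figure D2:**
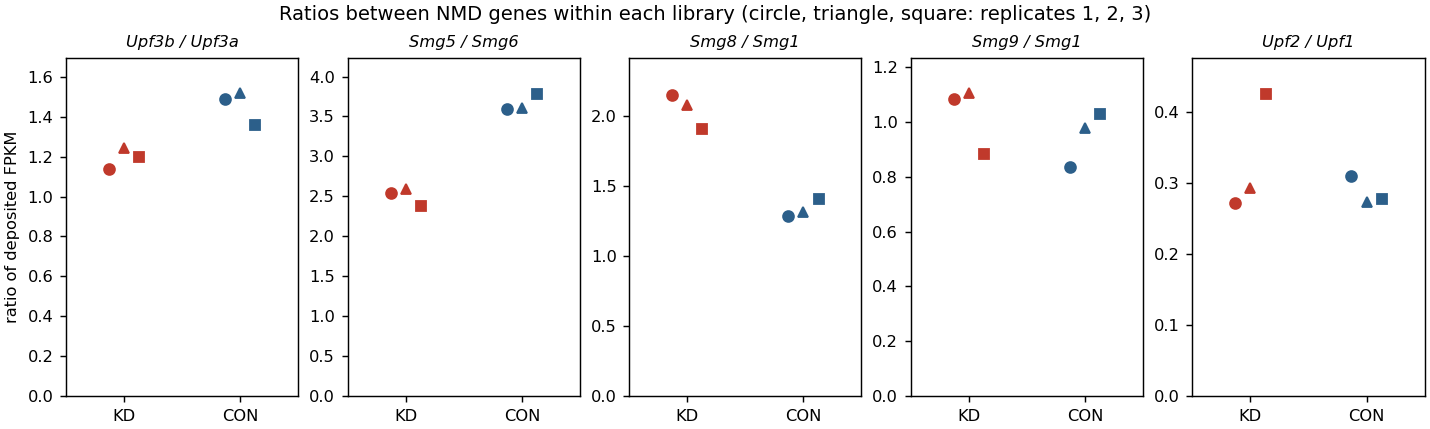
Ratio of deposited FPKM between pairs of NMD genes within each library (vertical axes, from 0) for KD and CON, with 1 point per library. Smg5 over Smg6 lies at 2.38 to 2.59 in KD and 3.59 to 3.78 in CON, and Upf2 over Upf1 lies at 0.425 in KD-3, above the other 5 libraries.

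UPF1, the helicase at the centre of the pathway, had the highest deposited FPKM of the 9. Upf1 was at 211, 199 and 171 CPM in the KD libraries, against 246, 254 and 250.0 CPM in the CON libraries. All KD libraries were lower than all CON libraries, and KD-3 was the lowest. The fall was 1.29-fold (log2 fold change -0.37, SE 0.062, edgeR adjusted p = 9.13e-05), and without KD-3 it was -0.29 on the log2 scale. Its call was lost under scaling by total counts only, at a log2 fold change of -0.14 (edgeR adjusted p = 0.0571). Upf1 occupies chromosome 8 from 70331525 to 70353278, reverse strand, and shares 68 exonic bases with Cers1 and 63 with Gdf1 on the opposite strand.

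UPF2 bridges UPF1 and the UPF3 proteins. Upf2 was at 68, 69.3 and 86 CPM in the KD libraries, against 90.6, 82.4 and 82.2 CPM in the CON libraries. KD-3 lay within the range of the CON libraries, and the other KD libraries below it. The fold change passed narrowly (log2 fold change -0.19, SE 0.078, edgeR adjusted p = 0.0414). Its call was lost without KD-1 (edgeR adjusted p = 0.129), KD-2 (0.158), CON-1 (0.148), CON-2 (0.0601) or CON-3 (0.0515), although the log2 fold changes stayed below 0, at -0.14, -0.15, -0.16, -0.22 and -0.22 in that order. Without KD-3 the fall was larger (log2 fold change -0.32, edgeR adjusted p = 1.24e-06). With scaling by total counts only it turned to 0.035 and did not pass (edgeR adjusted p = 0.713). The ratio of Upf2 to Upf1 was 0.272, 0.293 and 0.425 in KD and 0.31, 0.274 and 0.277 in CON, with overlapping groups (exact permutation p = 0.7).

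UPF3A and UPF3B are paralogs. UPF3B, from a gene on the X chromosome, links UPF2 to the exon junction complex, while UPF3A has been described both as a weaker stand-in and as a brake on NMD. Upf3a was the only one of the 9 genes called higher in KD. It had 1862, 1968 and 1841 counts in the KD libraries, against 1195, 1234 and 1213 counts in the CON libraries. The mean was 46.9 ± 3.06 CPM in KD and 35.4 ± 1.7 CPM in CON (SD, n = 3 each) with no overlap, a 1.32-fold rise (log2 fold change 0.40, SE 0.067, edgeR adjusted p = 7.37e-05). Upf3a occupies chromosome 8 from 13785615 to 13799193, forward strand, and 2 of its 3 annotated transcripts retain an intron. So do 5 of 10 for Smg1, 5 of 9 for Smg5, 4 of 7 for Smg9 and 1 of 6 for Smg6. These genes were called lower with TMM scaling.

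Upf3b was at 34.5, 38.9 and 41.1 CPM in the KD libraries, against 35.7, 35.2 and 34.5 CPM in the CON libraries. KD-1 was level with the lowest CON library, and the other KD libraries lay above the CON range. The log2 fold change was 0.12 (95% interval -0.03 to 0.27, edgeR adjusted p = 0.159), which without KD-1 became 0.18 and passed (edgeR adjusted p = 0.0374). Upf3b was called higher with scaling by total counts only (log2 fold change 0.35, edgeR adjusted p = 0.000504). Upf3b occupies chromosome X from 37091678 to 37110322, reverse strand. The FPKM ratio of Upf3b to Upf3a was 1.14, 1.24 and 1.2 in KD and 1.49, 1.52 and 1.36 in CON. It was lower in each KD library than in each CON library, by 0.29 on the log2 scale, at the smallest p the design allows (exact permutation p = 0.1, adjusted 0.167).

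**Figure D3:**
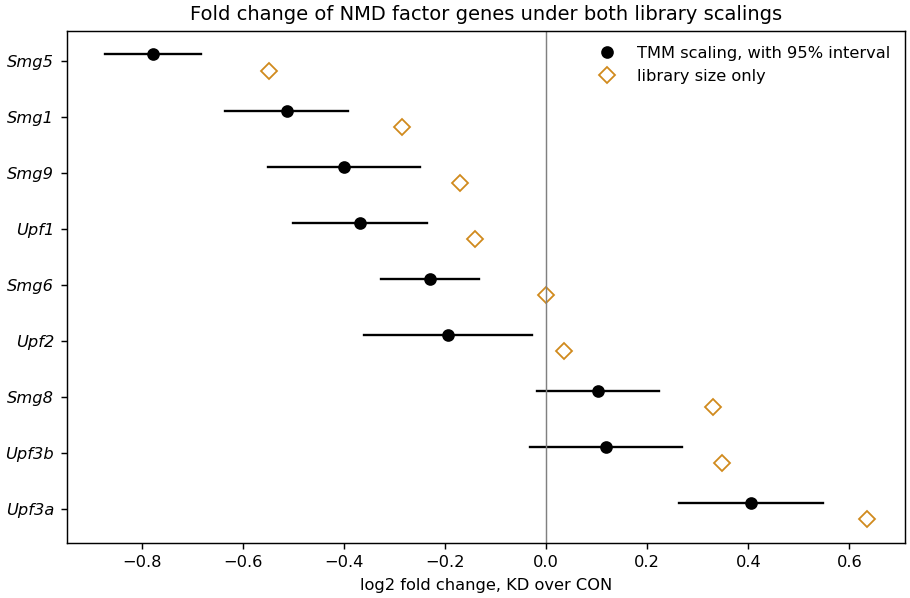
Log2 fold change, KD over CON (horizontal axis), of the 9 NMD factor genes with TMM scaling (filled points with 95% intervals) and with libraries scaled by total counts only (open diamonds). Smg5 is lowest at -0.78 and Upf3a highest at 0.40 with TMM, and with total counts only Upf2 is at 0.035 and Smg6 at -0.0012.

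Levels can be compared between genes only per length. By deposited FPKM, Upf1 led with 45.4 ± 4.78 in KD and 50 ± 0.677 in CON, and Smg5 followed with 33.1 ± 1.45 in KD and 48.5 ± 0.979 in CON (SD, n = 3 each). The other 7 lay between 7.66 FPKM for Smg1 and 15.7 FPKM for Smg8 in KD, and between 5.58 FPKM for Upf3a and 14.3 FPKM for Upf2 in CON. In KD the neighbours Smg8 and Upf2, Upf2 and Smg6, and Smg9 and Smg1 differed by less than the larger of their SDs, as did Smg1 and Smg9 in CON. Upf3a was last of the 9 in CON and seventh in KD, while Smg1 was sixth in CON and last in KD. The order rests on the length used. The length behind the deposited FPKM equalled the union of all annotated exons in GENCODE M21 for all 9 genes, retained introns included. For Upf3a that is 5865 bases, although its coding transcript has 2057, and for Smg1 it is 23984 bases against 15557. Per kilobase of coding transcript, Smg5 led Upf1 with 47.9 against 41.9 TMM-scaled CPM in KD and 82.1 against 54.2 in CON, and Upf3a was above Upf3b, with 22.8 against 16.3 in KD and 17.2 against 15 in CON.

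The 250 bases before the RefSeq start of each gene were scanned for 5 short motifs on both strands, since they show what the promoters of the genes at either end of the fold changes hold. Sequences are from RefSeq on GRCm38.p6, and all 9 genes matched. The motifs were the GC box GGGCGG, the ETS motif CCGGAAG, the E-box with the letters CACGTG, the NF-Y motif spelled CCAAT and the C/EBP-ATF element written TGATGCAA, none of which contains another. Capitals mark every match in the promoters of Smg5 (chr3:88336010-88336259, forward), Smg1 (chr7:118243638-118243887, reverse), Upf3a (chr8:13785365-13785614, forward) and Upf3b (chrX:37110323-37110572, reverse), each written in the direction of the gene.
Smg5: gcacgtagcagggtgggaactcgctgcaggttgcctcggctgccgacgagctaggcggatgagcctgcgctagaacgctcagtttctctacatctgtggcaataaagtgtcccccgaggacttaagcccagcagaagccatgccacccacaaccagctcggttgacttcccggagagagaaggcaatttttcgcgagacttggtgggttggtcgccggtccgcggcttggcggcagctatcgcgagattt
Smg1: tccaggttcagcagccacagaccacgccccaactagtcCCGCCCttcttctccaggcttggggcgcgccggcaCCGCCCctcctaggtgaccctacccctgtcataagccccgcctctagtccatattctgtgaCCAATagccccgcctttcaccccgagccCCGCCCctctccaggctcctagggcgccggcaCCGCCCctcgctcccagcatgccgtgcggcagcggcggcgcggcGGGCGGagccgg
Upf3a: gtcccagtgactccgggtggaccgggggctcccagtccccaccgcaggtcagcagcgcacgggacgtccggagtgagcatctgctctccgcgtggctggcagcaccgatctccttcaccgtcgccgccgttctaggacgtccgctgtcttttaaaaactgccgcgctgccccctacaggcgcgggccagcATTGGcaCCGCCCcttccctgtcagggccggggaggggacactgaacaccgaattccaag
Upf3b: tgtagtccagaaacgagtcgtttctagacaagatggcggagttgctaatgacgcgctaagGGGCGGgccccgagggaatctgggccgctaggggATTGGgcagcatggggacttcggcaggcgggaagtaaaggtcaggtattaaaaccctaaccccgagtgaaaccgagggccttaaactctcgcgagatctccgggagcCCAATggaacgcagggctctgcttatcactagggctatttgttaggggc
Smg5, which fell most, held none of the 5 motifs in this window, while Smg1 held 5 GC boxes and 1 CCAAT. Upf3a held 1 GC box and 1 CCAAT, and its paralog 1 GC box and 2 CCAAT. Over the 9 genes, 7 held a GC box and 4 a CCAAT, beside 32.7% and 33.8% of the 32851 promoters in the RefSeq table. Those promoters were not limited to the genes tested here. An ETS motif stood in Smg8 alone (6.91% of all promoters). None held the E-box (6.02% of all promoters) or the C/EBP-ATF element (0.791%). The GC content was 50.8 to 72.8% in the 9 windows, with a median of 52.4% over all promoters.

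GENCODE M21 annotates a transcript of the nonsense-mediated decay class, whose stop codon lies well before the last exon junction, in 3 of the 9 genes: Smg1, Smg5 and Smg6. The other 6 have none. All 3 were among the 6 that fell with TMM scaling, and Smg6 did not fall with scaling by total counts only. Among 15099 tested protein-coding genes, 3975 have such a transcript. Of those genes 35.8% fell and 35.1% rose in KD, and of the 11124 without one 31.6% fell and 36.5% rose. Counts were deposited per gene, so the level of these transcripts was not analysed here. The 3' untranslated region of the coding transcript ranged from 221 bases for Smg8 to 4233 for Smg1. The median was 892 over the tested coding genes. Smg5, Smg6, Upf2 and Upf1 had 1230, 1498, 1261 and 958, and Smg9, which also fell, had 400. Upf3a and Upf3b had 719 and 834.

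Around the 9 factors, genes of the exon junction complex, the mark that UPF3B reads, moved little and in both directions. Of 9 tested, 5 were lower and 3 higher, beside 30.8% and 32.2% of all genes tested. The median log2 fold change was -0.13. Casc3, a core subunit, rose 1.23-fold, at 134 ± 3.77 CPM in KD and 108 ± 4.04 CPM in CON (SD, n = 3 each, edgeR adjusted p = 5.13e-05). Rbm8a and Sap18 rose 1.13-fold each. Eif4a3, the core's RNA clamp, fell 1.13-fold, and Magoh, Magohb, Rnps1 and Pnn fell 1.1-fold to 1.22-fold. With scaling by total counts only, the 3 rises stayed called, Acin1 joined them and none of the 9 was lower. Over all genes tested, 46% were then higher and 19.6% lower. The count of falls was 2 without KD-1, KD-2 or CON-2.

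Among 11 partners of the pathway, 6 were lower in KD, 3 higher and 2 not called, beside 30.8% lower and 32.2% higher over all genes tested. The median log2 fold change was -0.23. Etf1, which encodes the release factor eRF1 that reads stop codons, fell 2.17-fold, at 246 ± 14.6 CPM in KD and 533 ± 12.9 CPM in CON (SD, n = 3 each, edgeR adjusted p = 2.55e-11). Its partner Gspt1, the eRF3a gene, fell 1.27-fold, and Gspt2 did not pass, at 21.1 CPM in KD and 21.4 CPM in CON. Pabpc1, the cytoplasmic poly(A)-binding protein gene, fell 1.66-fold, at 1747 ± 22.2 CPM in KD and 2892 ± 12.3 CPM in CON. Ruvbl1, Ruvbl2 and Pnrc2 fell 1.17-fold to 1.3-fold. Ncbp2, the small subunit of the nuclear cap-binding complex, rose 1.55-fold, while Ncbp1, the large one, did not pass (99.3 CPM in KD and 101 CPM in CON). Dhx34 and Nbas, described as NMD factors at UPF1 and at the endoplasmic reticulum, rose 1.28-fold and 1.18-fold. With scaling by total counts only, 5 rose and 4 fell, beside 46% and 19.6% of all genes tested. Ruvbl1 and Pnrc2 then lost their calls, and Ncbp1 and Gspt2 were called higher.

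Genes for enzymes that degrade the RNA after NMD has marked it, and for their cofactors and complex subunits, mostly fell. For short, this whole group is called decay enzymes here. Of 34 tested, 22 were lower and 3 higher, with a median log2 fold change of -0.38. Over all genes tested, 30.8% fell and 32.2% rose. Dcp2, the decapping enzyme, fell 2.93-fold, at 43.9 ± 1.4 CPM in KD and 129 ± 1.58 CPM in CON (SD, n = 3 each, edgeR adjusted p = 1.31e-12). Xrn1, the exonuclease that follows decapping, fell 2.06-fold, and the exosome genes Exosc5 and Dis3 fell 1.96-fold and 1.8-fold. Skiv2l, the helicase of the SKI complex, rose 2.02-fold, at 121 ± 9.39 CPM in KD and 60 ± 1.56 CPM in CON (edgeR adjusted p = 9.1e-10), while Ttc37 of the same complex fell 1.52-fold and its Wdr61 did not pass (78.5 CPM in KD and 84 CPM in CON). The other 2 that rose were Cnot7 (1.27-fold) and Dcp1b (1.21-fold). Scaled by total counts only, 17 fell and 12 rose, beside 19.6% and 46% of all genes tested. The genes named here then kept their calls, except that Wdr61 was called higher.

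Of 8 genes for the other SMG1-family kinases and the TTT complex that assembles them, 2 fell, 2 rose and 4 did not pass. Over all genes tested, 30.8% fell and 32.2% rose. Atr and Atm fell 1.57-fold and 1.27-fold, and Tti1 and Trrap rose 1.29-fold and 1.07-fold. Mtor had 176 CPM in KD and 187 CPM in CON, and did not pass (edgeR adjusted p = 0.135). Trrap passed narrowly (edgeR adjusted p = 0.0485), and leaving out any 1 library other than KD-3 left 1 rise among the 8. Scaled by total counts only, 5 of the 8 rose and Atr was the only fall, beside 46% higher and 19.6% lower over all genes tested.

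Genes with transcripts described as NMD substrates in mammalian cells were mostly lower in KD. Of 24 tested, 18 were lower, 3 higher and 3 not called, beside 30.8% lower and 32.2% higher over all genes tested. The median log2 fold change was -0.61, beside 0.02 for all genes tested. With scaling by total counts only 15 fell and 5 rose, beside 19.6% and 46% of all genes tested. GENCODE M21 annotates a transcript of the nonsense-mediated decay class in 8 of the 24. Slc7a11, Ddit3, Atf4, Cars, Upp1, Gadd45a and Atf3, which fell, have also been described as targets or members of the ATF4 stress pathway. They were picked from the 24 with their values known. Atf4 was at 91.7 ± 1.95 CPM in KD and 388 ± 2.49 CPM in CON (SD, n = 3 each). The snoRNA host genes Snhg1, Snhg12, Gas5 and Snhg15 fell 3.76-fold, 2.32-fold, 1.98-fold and 1.77-fold. The splicing factor genes Tra2b, Srsf7, Srsf2, Srsf6 and Srsf3, which carry exons that trigger NMD, fell 1.59-fold to 1.25-fold, with Srsf3 losing its call when scaled by total counts only. Cdkn1a, Nat9 and Ern1 rose 1.87-fold, 1.43-fold and 1.29-fold, and were called higher with scaling by total counts only as well. Gadd45b, an often used NMD substrate, was at 56 ± 0.728 CPM in KD and 52 ± 4.3 CPM in CON and did not pass (edgeR adjusted p = 0.16), but was called higher with scaling by total counts only. Gene counts give the level of these genes and not the rate at which their RNA decays.

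**Figure D4:**
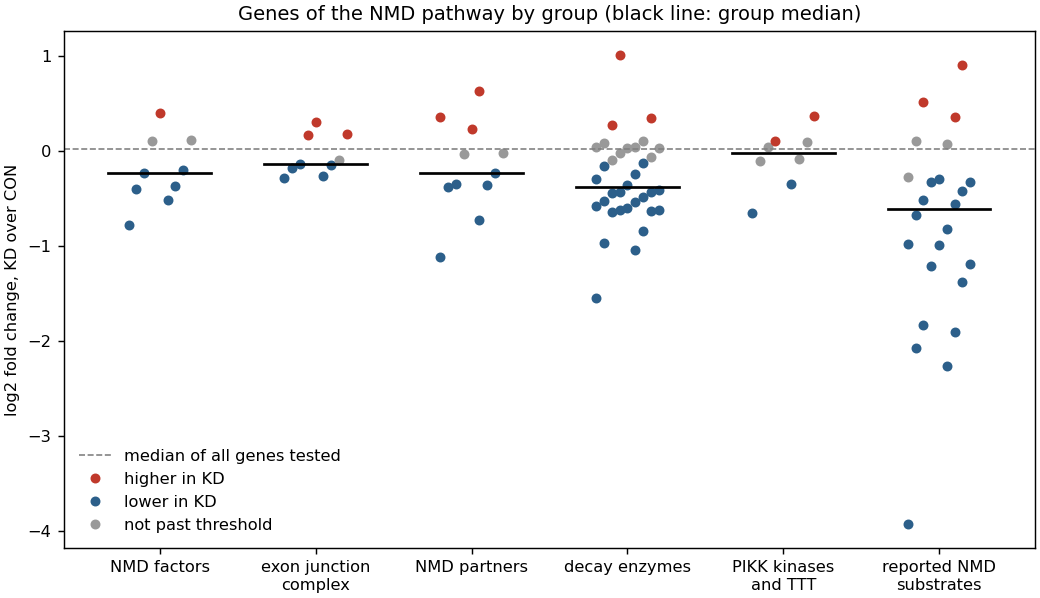
Log2 fold change, KD over CON (vertical axis, TMM scaling), of each tested gene in 6 groups of the NMD pathway. Points are genes coloured by call, black lines are group medians, and the dashed line is the median of all genes tested, at 0.02. The medians of the NMD factors and of the decay enzymes, with their cofactors and subunits, are -0.23 and -0.38.

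Taken over the 6 libraries, the mean profile of the 9 genes was nearest to those of Ap1g1, Eif4e2 and Wdr45b among 10009 other genes of at least 10 CPM, at Euclidean distances of 0.0192, 0.0261 and 0.0334 in centred log2 CPM. Their log2 fold changes were -0.21, -0.21 and -0.18. In the authors' deposited table, whose log2 fold change is CON over KD, 7 of the 9 genes had an adjusted p below 0.05, with 6 higher in CON and 1 higher in KD. Of all 31641 genes in the authors' deposited table, those with low counts included, 32.6% passed that threshold, 16.4% higher in CON and 16.2% higher in KD. In the authors' deposited table Smg5 had 0.79 and Upf3a -0.39 on that scale, while Upf3b and Smg8 had adjusted p-values of 0.405 and 0.368. RNA was taken from whole cultures, so fewer cells that express a gene and less RNA per cell cannot be told apart in any of these values.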

How the data were processed

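Poly(A)-selected RNA of 6 libraries (KD 3, CON 3) was sequenced. Per the submitters' processing notes, FastQC 0.11.9, STAR 2.5.3a, featureCounts and the build mm10 were used; the sources used here give neither strand setting nor multi-mapper handling. The deposited table holds raw counts per gene and, per the file headers, FPKM made by the authors. It also holds the authors' log2 fold change (CON over KD, from the values) and FDR, an adjusted p-value. Deposited counts from 1 to 20 were even in 70 to 71.7% of cases, as when mates are counted singly. Counts, and not only low ones, are then less precise than they look. Identifiers restored 26 symbols that dates had replaced, and 31521 were found in GENCODE M21.

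Counts were tested in R 4.3.3 with edgeR 4.0.16 (filterByExpr, TMM, robust quasi-likelihood F-test) and adjusted by Benjamini-Hochberg over 18019 genes, and the script was tested on simulated data. SE is the size of the log2 fold change over the square root of F. Members, lists and tests were chosen with earlier results of these data known; the ratios other than Upf3b to Upf3a, transcript classes, lengths, the promoter window and motifs, Ttc37 and Wdr61 after their values were seen. Named genes were the members, Nat10, list genes (of decay enzymes, the 4 smallest p per direction) and the 3 nearest profiles. Alternatives were scaling by total counts, RLE factors, DESeq2 1.42.0, other filters, a replicate block, counts divided by 2 and leaving out each library. A further gene of the pathway, in none of the lists, is not reported here.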

Additional observations from a re-analysis of the deposited data

How the results depend on the processing

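Scaling by total counts only moved most: 3 of the 9 NMD factor genes were then higher and 3 lower, and Upf2 turned to 0.035. Under that scaling 46% of all genes tested were called higher and 19.6% lower. Under it 0 exon junction genes fell, and 5 partner genes, 12 genes of the decay enzyme group and 5 reported substrates rose. In the kinase group 5 rose and 1 fell. Kinase-group rises numbered 1 with DESeq2, with RLE factors, with no count filter and with the replicate block, and exon junction falls numbered 3 with no filter and with the block. Leaving out each library in turn gave 1 to 2 members higher and 5 to 6 lower, 2 to 6 exon junction falls and 1 to 3 kinase-group rises. Whether equal replicate numbers mark paired samples is not stated. Deviations of same-numbered libraries from their group means correlated at -0.0608, 0.0151 and -0.0387, which does not settle it. The replicate block gave 1 member higher and 6 lower. Smg1, Smg5, Smg9 and Upf3a kept their direction and their call under all 13 alternatives, with log2 fold changes of -0.58 to -0.28, -0.81 to -0.55, -0.45 to -0.17 and 0.35 to 0.63. Under total counts only, Smg9 kept its call narrowly (edgeR adjusted p = 0.0427), and Upf1 and Smg6 lost theirs. The cause of these shifts was not tested beyond the scaling itself.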
